A study of Secale cereale x Triticum turgidum subsp. durum with 48 samples.

Results

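The 100 probe sets described here fell at each of the 3 steps between successive stem stages of triticale, a cereal bred from wheat and rye. They were chosen from group means on the log2 scale. For every probe set, the falls from stem 21 to stem 45, from stem 45 to stem 59 and from stem 59 to stem 75 were computed, the smallest of the 3 was kept, and the 100 probe sets with the largest such value were taken. The Affymetrix and reporter controls and IDs ending in _s_at, _x_at or _a_at, which mark probes that can bind several transcripts, were left out first, so that the rule could take 48411 of the 61290 probe sets on the array. Because the stem values chose the members, every stem value below is a description, with no test. Tests were made only among the 12 groups that hold no stem.

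The numbers in group names are Zadoks stages, a scale of cereal growth. Stem was the internode between the crown and the second node at stages 21, 45, 59 and 75 (n = 3 arrays each). Leaf was sampled in the seedling (leaf 13), at tillering (leaf 23), as flag leaf at booting (flag leaf 49, n = 5), and as flag leaf in early and late senescence, 22 and 30 days after anthesis (flag leaf 75 and flag leaf 85). Root and emerged coleoptile, the sheath around the first shoot, were taken 7 days after sowing at stage 7. Seeds at stage 85, soft dough, were dissected into embryo with its scutellum, crease (the vascular bundle of the ventral groove), endosperm, pericarp and epiderm, the outermost layer (n = 2 arrays each for the last pair, and 3 for every other group not given a number). Root and coleoptile came from the cultivar AC Alta and all other samples from AC Certa, untreated plants that shared growth chamber conditions of 16 h light at 18 °C and 8 h dark at 15 °C. The labels call the replicates biological and do not say whether plants were pooled or shared, and the p-values therefore describe the spread among these arrays alone.

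A grass internode grows from a zone of dividing cells at its base. Cells leaving that zone elongate, which requires loosening and rebuilding of the primary wall, and then thicken and lignify their walls while the stem becomes a path for water and a store of sugars. Xyloglucan endotransglucosylase/hydrolases, one of which is among the members, cut and rejoin the xyloglucan chains that tether cellulose in the primary wall. Coleoptile, root and young leaf are other grass organs that hold dividing or elongating cells. In bulk tissue, fewer cells of a type and less RNA per cell cannot be told apart.

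All values are log2 signals after RMA, the robust multi-array average, so a difference of 1 is a 2-fold change, and signals of different probe sets are not compared as amounts. The background level was 5.99, the 95th percentile of the 64 reporter probe sets, which are made for foreign genes. Array medians over all probe sets lay between 4.87 and 5.03, and every array differed from all others. Of the genes named by the annotation, petC, a subunit of the photosynthetic cytochrome complex, marked the green organs on Ta.861.1.S1_at. Group means there were between 13.77 and 13.86 in leaf, between 12.79 and 13.54 in stem and 13.19 in coleoptile, against 5.27 in root and 5.75 in embryo. In the other seed tissues this probe set read 12.42 in endosperm, 12.79 in pericarp, 8.20 in epiderm and 5.31 in crease. A second petC probe set, TaAffx.128418.105.S1_at, stayed between 3.18 and 3.75 in every group. A thionin probe set (THI1.1), Ta.23967.1.S1_s_at, read 13.69 to 13.73 in endosperm, pericarp and epiderm alike, 14.47 in crease and 8.17 in embryo. A second THI1.1 probe set, Ta.23967.1.S1_x_at, read 12.31 to 12.50 in endosperm, pericarp and epiderm, 14.06 in crease and 7.61 in embryo. One leaf 13 array stood apart on the members. Replicate 1 of leaf 13 was the lowest of its group on 83 of the 100 members, and by 1 or more on 48, whereas it was the lowest on 36.8% of the 18655 probe sets the rule could take with a stem 21 mean at or above that of the dimmest member. Those 18655 serve below as a second background, called the equally bright probe sets. The name marks a shared lower limit at stem 21 and no matching of signal. At stem 21 their median was 6.72 and 70.0% were above background, whereas the members had a median of 8.50 and 91 above background. Counts and tests that use leaf 13 are given with that array and, where leaving it out moves them, without it.

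Of the 48411 candidates, 2204 (4.55%) fell at each of the 3 stem steps by any amount. The members are those among them with the largest smallest fall, which need not be the largest total fall. Their falls ranged from 0.353 to 4.50 at the first step, from 0.363 to 2.25 at the second and from 0.37 to 6.33 at the third, with medians of 1.06, 0.69 and 1.17. From stem 21 to stem 75 the members fell by 1.18 to 7.61, with a median of 3.46. The decline was rarely even: the first step was the largest for 40 members, the second for 13 and the third for 47, and a fall of at least 1 at every step was seen on 13 members. The second step was the smallest for 55.

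Just inside the threshold, Ta.13596.1.A1_at fell by 0.41, 0.36 and 0.71 at the successive steps. The next, Ta.8866.1.S1_at, fell by 0.91, 0.36 and 1.97. Ta.18011.1.S1_at was the last member, with 0.35, 1.02 and 1.56. Just outside, Ta.26148.1.S1_at fell by 0.35, 1.05 and 1.82, the same smallest fall as the last member, and was left out by table order. Ta.17890.1.S1_at (0.39, 0.35 and 1.37) and Ta.22872.3.S1_at (0.55, 0.35 and 1.15) followed.

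The steps could also be read array by array. No array of the later stage reached any array of the earlier one on 89 members at the first step, 76 at the second and 84 at the third, and on 60 members at all 3. The same held for 21%, 16.7% and 18.3% of all tested probe sets at the 3 steps and for 0.275% at all of them, and the members' counts follow largely from the rule. The median over members was 8.41, 8.50 and 8.32 on the stem 21 arrays, 6.95, 6.78 and 6.76 at stem 45, 6.22, 6.11 and 5.83 at stem 59, and 4.44, 4.56 and 4.53 at stem 75. Members above background numbered 91 at stem 21, 75 at stem 45, 50 at stem 59 and 19 at stem 75. The last step of the 50 members under it at stem 59 was thus a change below background.

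**Figure D1:**
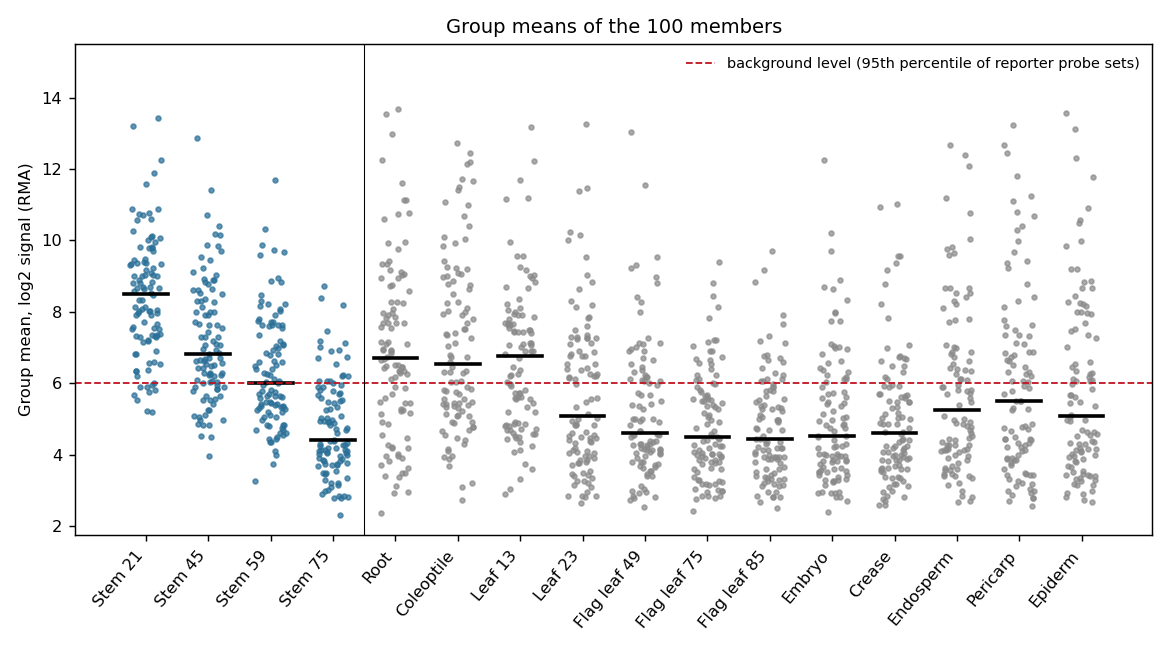
Group means of the 100 members on the log2 signal scale in the 4 stem groups (blue) and the 12 other groups (grey). Each point is 1 member, the black bars are medians over members, and the dashed line is the background level of 5.99. The bars step down in stem through 8.50, 6.83, 6.01 and 4.41, and the bars of root, coleoptile and leaf 13, at 6.70, 6.53 and 6.77, lie above those of the other groups without stem, which run between 4.43 and 5.50.

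The member with the largest smallest fall, Ta.5244.1.A1_at, read 9.07, 8.87 and 8.48 at stem 21, 7.56, 7.49 and 7.29 at stem 45, 6.66, 6.33 and 3.94 at stem 59, and 2.63, 2.84 and 2.87 at stem 75. The stages did not overlap, and 1 stem 59 array lay far under the other two. Outside stem it was above background in root, at 6.96, 6.89 and 6.88, and on a pair of leaf 13 arrays, which read 2.94, 6.64 and 7.27. In coleoptile it stayed lower, at 4.88, 4.59 and 5.26, and in the 9 remaining groups its means lay between 2.66 and 3.91.

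TaAffx.86505.1.S1_at, rank 4, read 10.03, 9.97 and 10 at stem 21, 9.03, 8.93 and 8.58 at stem 45, 7.85, 7.58 and 7.42 at stem 59, and 2.97, 2.73 and 2.76 at stem 75. Its last step was thus far larger than the others. In root it read 10.05, 9.68 and 10.09, the level of stem 21, and in coleoptile 7.19, 7.49 and 7.53. TaAffx.124515.1.A1_at, rank 5, had the same shape, with 10.46, 10.37 and 9.97 at stem 21, 3.69, 3.63 and 3.74 at stem 75, and 11.12, 10.91 and 11.38 in root.

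Ranks 2 and 3 also reached a stem 21 level in root. Ta.24015.1.A1_at had means of 7.96, 6.71, 5.46 and 2.99 over the stem stages and 7.68 in root. Ta.26144.1.A1_at had 7.33, 5.85, 4.69 and 3.49 over the stem stages and 7.55 in root.

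The next members departed from that pattern outside stem. Ta.7740.1.A1_at, rank 6, fell mostly at the first step, with 8.58, 10.12 and 9.50 at stem 21 and 4.63, 4.97 and 6.13 at stem 45, and it read 12.12, 12.08 and 12.19 in coleoptile, above all stem arrays. Ta.8758.1.A1_at, rank 7, read 9.11, 9.54 and 9.76 at stem 21 and 4.05, 4.40 and 4.40 at stem 75, and was below background in root at 3.87, 3.96 and 4.06. It was instead above background in leaf 13, leaf 23 and flag leaf 49, with means of 7.40, 7.60 and 6.94. Ta.8942.1.S1_at, rank 8, read 8.09, 8.06 and 8.26 at stem 21 and endosperm, with 5.27, 5.98 and 7.08, was the one other group whose mean was above background.

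**Figure D2:**
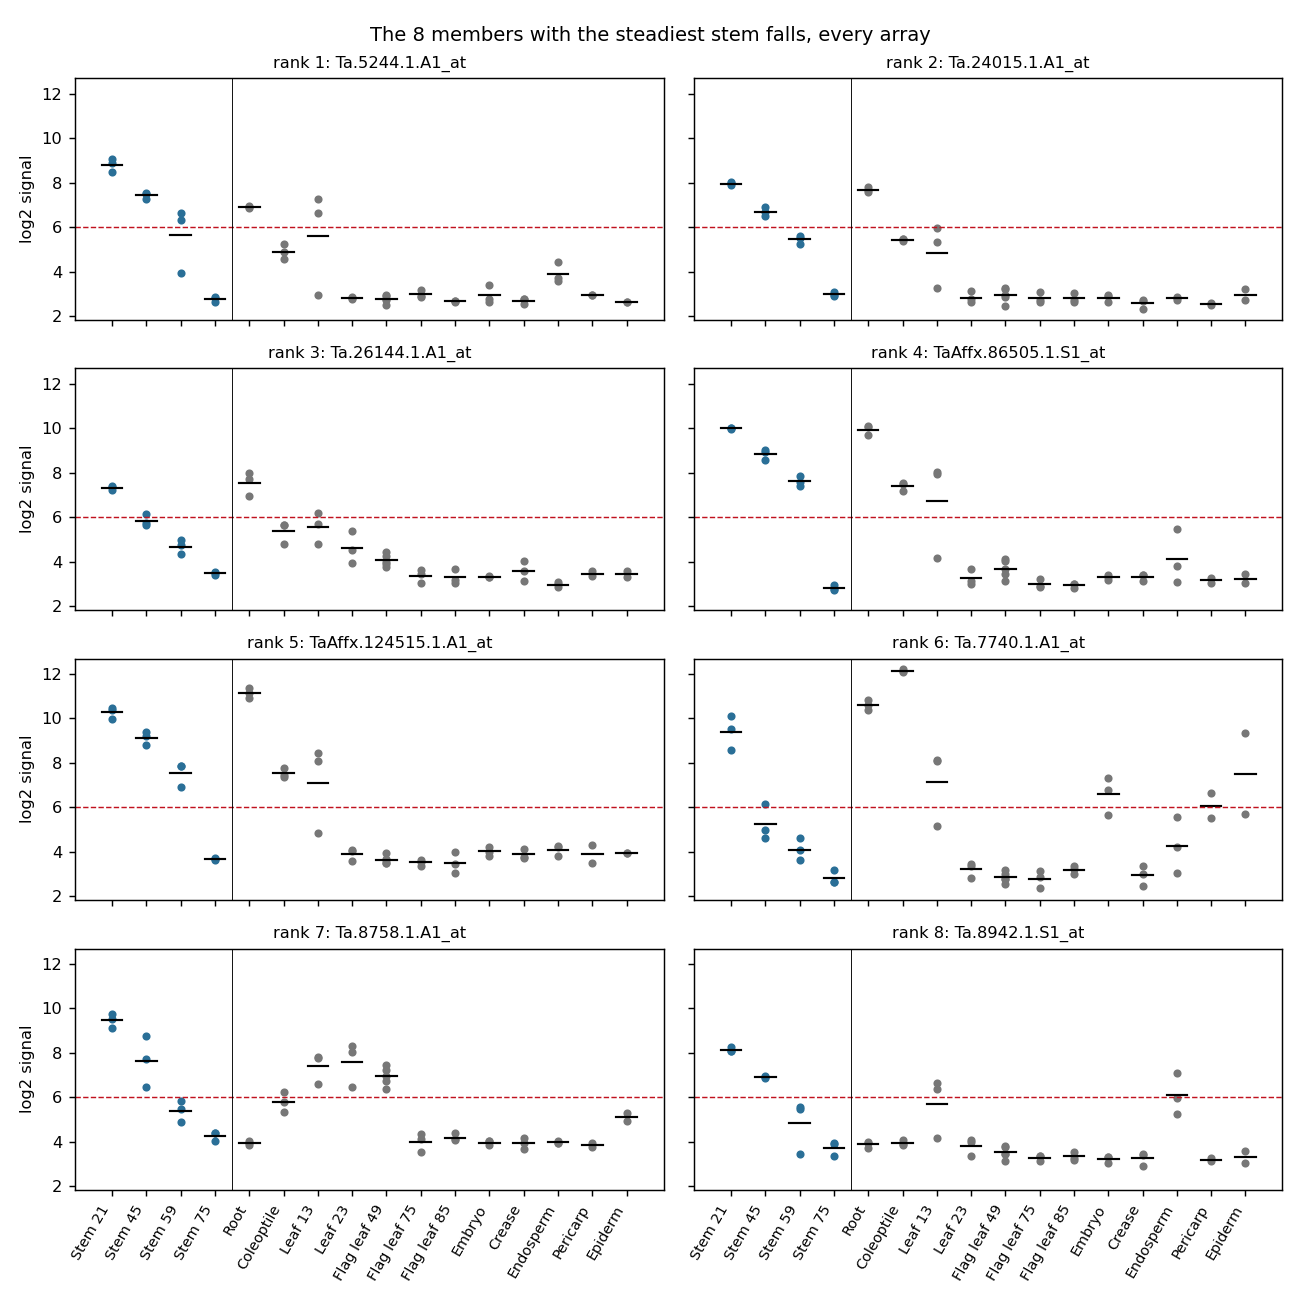
Log2 signal of the 8 top-ranked members on every array, stem in blue and the other groups in grey. Points are arrays, bars are group means and the dashed line is the background level of 5.99. Ranks 1 to 5 step down in stem and rise again in root, rank 6 is highest in coleoptile at 12.13, and rank 7 is held in leaf up to flag leaf 49 at 6.94.

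Over all members, root was the group without stem in which the signal was most often highest. Root and coleoptile were also the only groups from AC Alta, so organ and cultivar cannot be told apart in these counts. For 43 members the highest of the 12 group means was that of root (10.8% of the equally bright probe sets). For 12 it was that of coleoptile (4.95%). Together these made 55, compared with 15.7% of the equally bright probe sets. A seed group was the highest for 32, compared with 48.7%, and a leaf group for 13, compared with 35.6%. When replicate 1 of leaf 13 was left out, root was the highest for 40 members (10.8% of the equally bright) and coleoptile for 6 (4.6%). A leaf group was then the highest for 25 (35.1%) and a seed group for 29 (49.4%). Without that array the coleoptile count was thus near its share. Within seed, pericarp led on 13 members, where it led on 2.91% of the equally bright probe sets. The highest mean outside stem exceeded the stem 21 mean on 44 members, so for these the young internode was not the highest sample. Without replicate 1 of leaf 13 the count was again 44, compared with 86.9% of the equally bright probe sets. The rule used stem 21, where the members had a median of 8.50 and the equally bright probe sets 6.72. This contrast therefore follows in part from the choice of members and is a description.

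By the background level the members fell into 4 classes. None of the 12 groups reached 5.99 on 13 members (11% of the equally bright probe sets), and 7 of these were below it at stem 21 as well, which leaves 6 whose means were above background in stem alone. All 12 groups reached it on 9 members (37.3% of the equally bright). On 28 members, only groups among root, coleoptile and leaf 13 reached it, whereas 2.93% of the equally bright probe sets had that profile. The other 50 members were above background in other combinations of groups. The class with none held 12 members, and the class of root, coleoptile and leaf 13 held 29, without replicate 1 of leaf 13.

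**Figure D3:**
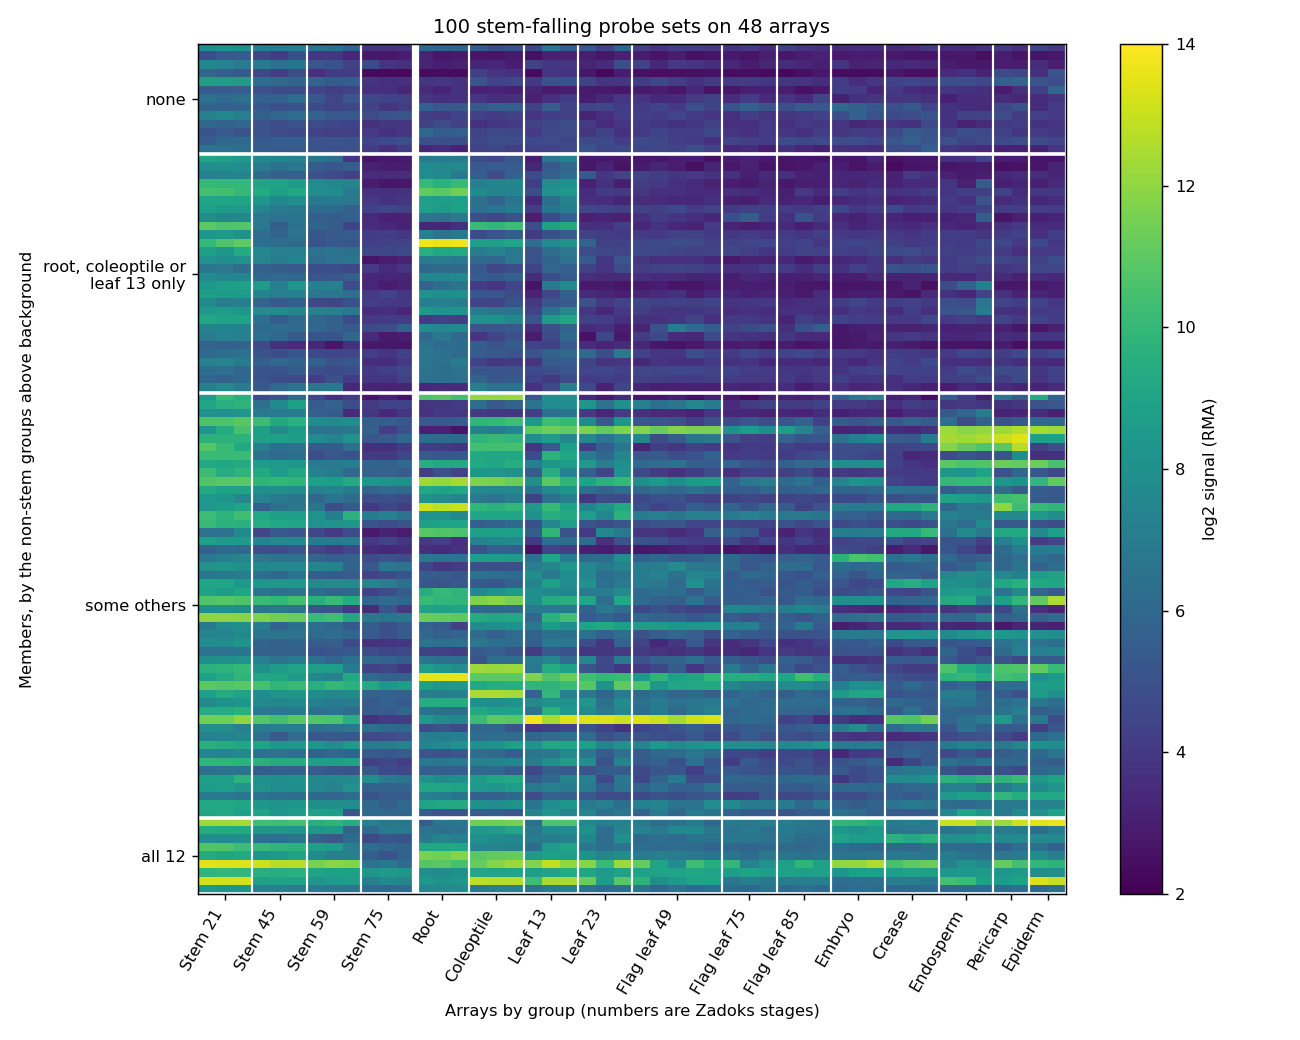
Log2 signal of the 100 members (rows) on all 48 arrays (columns, by group, stem at the left). Rows are split by the groups without stem in which the member mean was above background: none (13 members), root, coleoptile or leaf 13 only (28), some others (50) and all 12 (9). In the second class the root columns and the right-hand pair of leaf 13 columns stand out from the remaining groups.

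The most stem-biased member was TaAffx.110901.1.S1_at, whose stem 21 mean exceeded every other group outside stem by at least 3.22. It read 7.52, 7.33 and 7.01 at stem 21, 6.97, 6.43 and 6.66 at stem 45, 5.16, 5.0 and 4.35 at stem 59, and 4.71, 3.79 and 3.62 at stem 75. Outside stem its means lay between 2.85 and 4.06, all below background. TaAffx.128643.10.A1_at, with 8.80, 8.67 and 8.63 at stem 21, exceeded its highest group outside stem, pericarp, by 2.91. For Ta.30535.3.S1_at, with 6.44, 6.18 and 6.44 at stem 21, the corresponding margin was 2.43. In all, 23 members had a stem 21 mean at least 1 above every group without stem, a description since the rule used stem 21.

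At the other end, the 3 members with the largest excess over stem 21 were all highest in root. Ta.13785.1.S1_at read 13.10, 12.84 and 13.02 in root, against 8.29, 8.69 and 9.01 at stem 21. Ta.28728.1.S1_at read 13.54, 13.55 and 13.56 in root, against 8.81, 9.35 and 9.85 at stem 21. Ta.21262.1.A1_at read 10.88, 10.74 and 10.62 in root, against 6.51, 6.54 and 7.69 at stem 21. Root did not overlap stem 21 on any of these, and the margins of their means were 4.32, 4.21 and 3.83.

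Whether the members were also lower in leaf of later stages was the first question put to groups the rule did not use. Leaf 13 is seedling leaf and flag leaf 85 is senescing flag leaf. Their comparison therefore does not separate leaf age from leaf position or plant stage. In flag leaf 85 against leaf 13, 70 members were lower and 1 was higher (limma, Benjamini-Hochberg adjusted p under 0.05 and a log2 difference of at least 1), whereas 13.3% of all tested probe sets were called, 8.83% higher and 4.49% lower. Among the equally bright probe sets, 8.38% were lower. The median difference of the members was -1.80, with 94 negative and 6 positive, compared with -0.06 over all tested probe sets. Of the 71 calls, 22 had both group means below background. Without replicate 1 of leaf 13 the counts were 79 lower and 1 higher.

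Between successive leaf stages the counts were smaller. Leaf 23 against leaf 13 gave 29 lower and 1 higher (1.97% of all tested called, 0.924% higher and 1.05% lower). Flag leaf 49 against leaf 23 gave 14 lower and 1 higher (2.27%, 0.887% and 1.39%). Flag leaf 75 against flag leaf 49 gave 13 lower and 3 higher (4.18%, 2.82% and 1.36%), or 9 lower and 5 higher with arrays centred on the spiked controls. That centring moved the median of all tested probe sets there from -0.05 to 0.36. Flag leaf 85 against flag leaf 75 gave 0 members called by limma, compared with 0.0196% of all tested (0.00818% higher and 0.0115% lower). There, 6 members and 5.36% of all tested probe sets had an unadjusted p under 0.05, and the lowest adjusted p of a member was 0.0823. Of these comparisons, only flag leaf 75 against flag leaf 49 and flag leaf 85 against flag leaf 75 stayed within the flag leaf. Adjacent comparisons share a group, so their counts are given side by side and not set against each other.

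The leaf 23 against leaf 13 count rests on few arrays: it was 46 without replicate 1 of leaf 13, 15 without replicate 3 of leaf 13, and 0 when only these 6 arrays were fitted. The flag leaf 49 against leaf 23 count was 27 without replicate 2 of leaf 23 and 7 without replicate 3. It was 3 when only these groups were fitted, 28 with arrays centred on the spiked controls and 26 with array weights. Centring on the spiked controls moved the median of all tested probe sets in this comparison from 0.009 to -0.35. The shares of all tested probe sets called under these settings are not given here. By group means alone, leaf 13 was the highest of the 5 leaf groups on 82 members (30.4% of the equally bright) and 20 members fell at every leaf step (6.57%), or 88 and 20 without replicate 1 of leaf 13.

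Single members followed different courses in leaf. Ta.13232.1.S1_at, the member with the largest total stem fall (7.61), read 4.36, 4.66 and 3.52 in flag leaf 85, against 13.75, 12.45 and 13.32 in leaf 13. The groups were far apart, with a difference of -8.99 (SE 0.409, adjusted p = 2.08e-19 by limma). Without replicate 1 of leaf 13 the difference was -8.70. In flag leaf 75 it read 6.07, 6.20 and 6.06, against 13.31, 13.07, 12.35, 13.14 and 13.31 in flag leaf 49. The fitted change was -6.93 (SE 0.366, adjusted p = 1.28e-16 by limma). In stem its largest step was the last: it read 10.73, 10.62 and 9.60 at stem 59 and 3.70, 4.13 and 4.12 at stem 75. Crease, at 10.86, 10.74 and 11.44, was the seed tissue in which it was highest.

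Ta.30527.1.S1_at read 7.08, 7.13 and 7.19 in flag leaf 85, against 10.21, 12.41 and 12.45 in leaf 13, without overlap (difference -4.56, SE 0.448, adjusted p = 3.37e-10 by limma, and -5.30 without replicate 1 of leaf 13). Its means stepped down through 11.69, 10.24, 8.81, 6.90 and 7.13 over the leaf stages, and in stem through 13.21, 8.91, 8.48 and 7.45. Ta.11022.2.S1_at fell to 8.04, 8.58 and 7.78 in flag leaf 75, against 11.19 to 11.76 with a median of 11.55 in flag leaf 49, also without overlap. The difference was -3.42 (SE 0.382, adjusted p = 2.11e-08 by limma).

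A few members went the other way. Ta.26175.1.A1_at read 7.45, 7.28 and 6.86 in flag leaf 75, against 4.58, 5.12, 4.59, 4.28 and 4.34 in flag leaf 49, all of them higher than any flag leaf 49 array. The difference was 2.61 (SE 0.292, adjusted p = 2.07e-08 by limma), and its level in flag leaf 85 was similar at 7.09, 7.42 and 7.07. Ta.13362.1.S1_at was higher by 1.86 in flag leaf 75 than in flag leaf 49 (SE 0.44, adjusted p = 0.0024 by limma). Its mean of 4.55 in flag leaf 49 was below background, as was that of 5.06 in flag leaf 85. Leaf 13 was higher than all of these, at a mean of 8.36, so this member went the other way at that step alone. Ta.30947.2.S1_at was the 1 member higher in flag leaf 85 than in leaf 13, by 1.30 (SE 0.333, adjusted p = 0.002 by limma), and by 1.17 without replicate 1 of leaf 13, with both groups below background at 5.25, 5.50 and 5.88, against 4.0, 4.22 and 4.52.

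**Figure D4:**
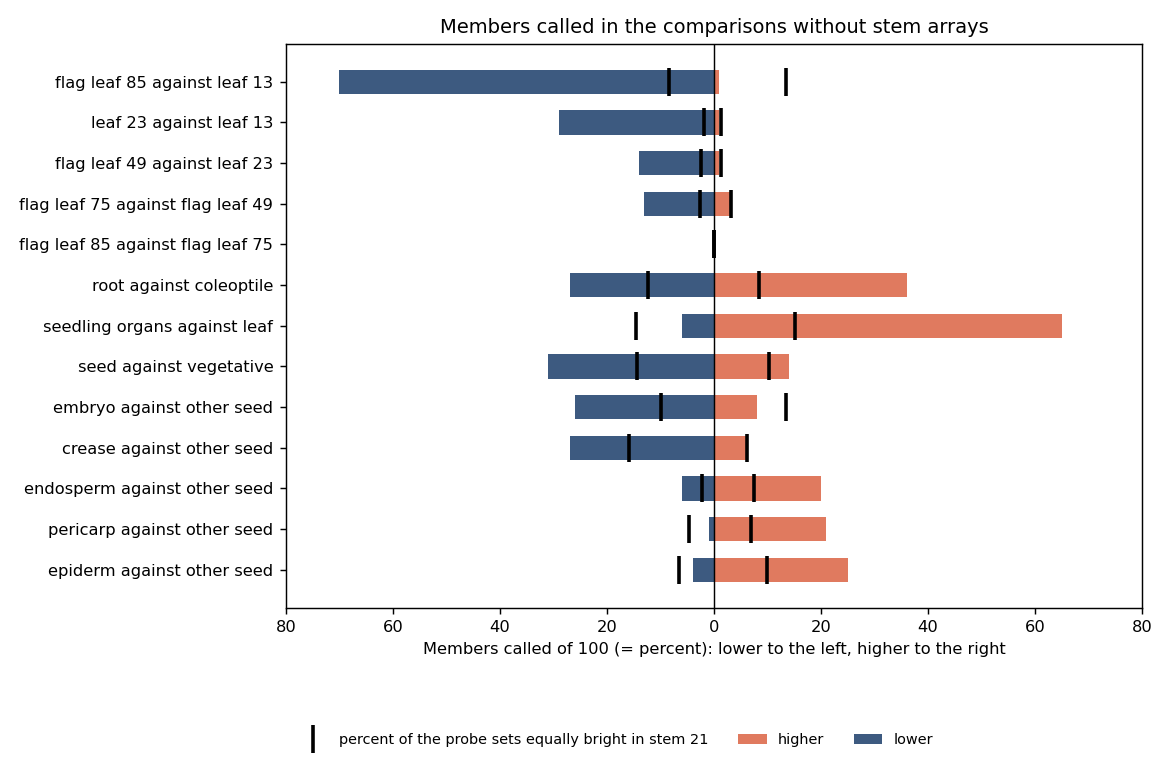
Members called by limma in the 13 comparisons without stem arrays, lower to the left and higher to the right, as a number of 100. Black ticks give the percent of the equally bright probe sets called in the same direction. In flag leaf 85 against leaf 13, 70 members were lower beside a tick at 8.38%, and in seedling organs against leaf, 65 were higher beside a tick at 15.2%.

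The pair of seedling organs differed from each other on most members, in both directions. In root against coleoptile, 36 members were higher and 27 lower, compared with 13.6% of all tested probe sets called (6.95% higher and 6.6% lower). Among the equally bright probe sets, 8.36% were higher and 12.4% lower. The median difference of the members was 0.12. The directions followed the classes: of the 28 members above background only among root, coleoptile and leaf 13, 22 were higher in root and 3 lower, whereas of the 50 in other combinations 12 were higher and 18 lower. The classes use the root and coleoptile means themselves, so this is a description.

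Ta.28889.1.S1_at read 13.71, 13.60 and 13.71 in root, against 8.77, 8.79 and 9.04 in coleoptile. All root arrays were far above all coleoptile arrays, with a difference of 4.81 (SE 0.315, adjusted p = 5.22e-16 by limma). In stem this member read 10.05, 10.70 and 11.07 at stem 21 and 6.37, 6.22 and 6.13 at stem 45, its largest step. TaAffx.124515.1.A1_at, described above, read 7.75, 7.38 and 7.43 in coleoptile, well under its root arrays. Its difference was 3.62 (SE 0.433, adjusted p = 7.62e-09 by limma).

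On TaAffx.8335.1.S1_at the order was turned, with 3.34, 3.29 and 3.61 in root, against 10.09, 9.90 and 10.26 in coleoptile. Root was below background and the difference was -6.67 (SE 0.529, adjusted p = 1.59e-13 by limma). At stem 21 it read 10.98, 10.63 and 10.72, close to coleoptile. Ta.10658.1.S1_at read 4.07, 4.02 and 3.79 in root, against 10.37, 10.36 and 10.44 in coleoptile (difference -6.43, SE 0.623, adjusted p = 3.94e-11 by limma). It was high again in endosperm, at 11.77, 11.11 and 10.69, and in pericarp, at 10.94 and 12.65.

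**Figure D5:**
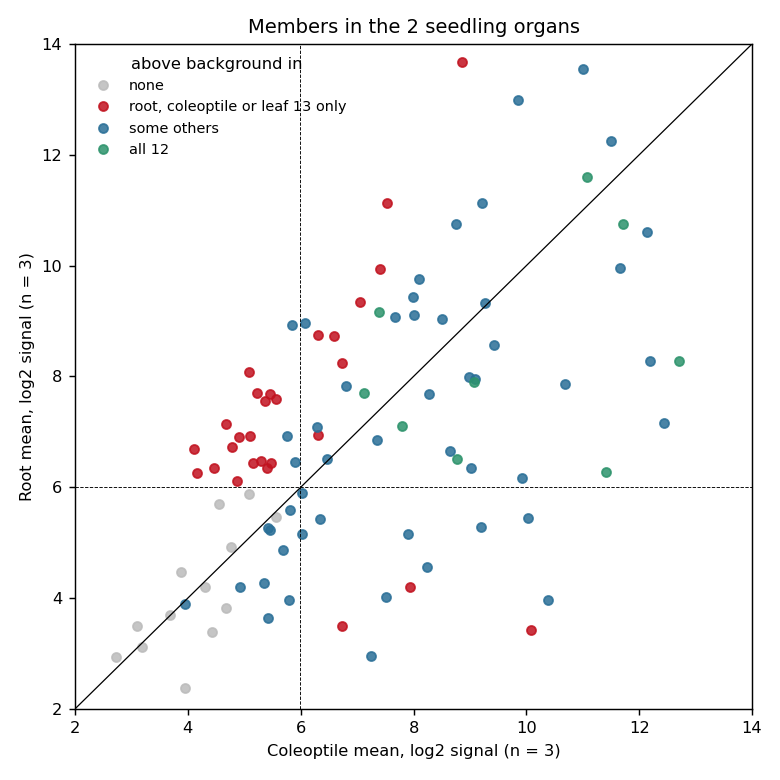
Root mean against coleoptile mean of each member (log2 signal, n = 3 arrays per mean), coloured by the groups without stem in which the member was above background. Dashed lines mark the background level of 5.99 and the diagonal marks equal signal. Of the 28 members above background only among root, coleoptile and leaf 13, 25 lie above the diagonal.

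The seedling organs were set against leaf next. In the mean of root and coleoptile against the mean of the 5 leaf groups, 65 members were higher and 6 lower, compared with 19.1% of all tested probe sets called (10.9% higher and 8.21% lower). Among the equally bright probe sets, 15.2% were higher and 14.5% lower. The median difference of the members was 1.42, compared with -0.07 over all tested probe sets. Of the 71 calls, 14 had both sides below background, and without replicate 1 of leaf 13 the counts were 61 higher and 6 lower. Cultivar and RNA extraction method cannot be told apart from organ here, because root and coleoptile were AC Alta extracted with guanidine isothiocyanate and cesium chloride, and leaf was AC Certa extracted with a column kit. Against leaf 13 alone, the count was 32 higher and 13 lower (12.4% and 7.07% of all tested), but 19 higher and 22 lower (11.2% and 7.06%) without replicate 1 of leaf 13, which turned the balance. Against flag leaf 85 alone it was 72 higher and 2 lower (10.7% and 10.4%). Both alternatives were chosen after the data were seen.

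Ta.7740.1.A1_at read 10.59, 10.84 and 10.39 in root and 12.12, 12.08 and 12.19 in coleoptile, against 2.36 to 8.13 over the 17 leaf arrays. Every seedling organ array was above every leaf array, and the difference was 7.53 (SE 0.369, adjusted p = 2.07e-20 by limma). Ta.28889.1.S1_at gave 6.15 (SE 0.184, adjusted p = 2.1e-27 by limma). Ta.18147.1.S1_at was lower, with 4.53, 3.95 and 4.10 in root and 4.92, 4.93 and 4.91 in coleoptile, against group means of 5.75 to 7.67 in leaf (difference -2.18, SE 0.218, adjusted p = 2.84e-11 by limma). Without replicate 1 of leaf 13 these differences were 7.33, 6.04 and -2.24.

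In seed the members were split. In the mean of the 5 seed groups against the mean of root, coleoptile and the 5 leaf groups, 14 were higher and 31 lower, compared with 16% of all tested probe sets called (7.73% higher and 8.3% lower). Among the equally bright probe sets, 10.2% were higher and 14.3% lower. The median difference was -0.50, and 20 of the 45 calls had both sides below background. Without replicate 1 of leaf 13, 14 were higher and 37 lower. The balance of calls changed with the vegetative groups used. Against root and coleoptile alone 9 members were higher and 60 lower (5.56% and 8.07% of all tested), and against leaf alone 20 were higher and 10 lower (10.4% and 9.22%), or 19 and 11 without replicate 1 of leaf 13. Both were chosen after the data were seen. Against root and coleoptile, cultivar and extraction method cannot be told apart from organ, because root and coleoptile alone were AC Alta and were extracted by another method. With crease and epiderm against leaf, all extracted with the same kit, 18 were higher and 12 lower (10.3% and 9.71%), or 17 and 15 without that array. For the mean of all 5 seed groups with arrays centred on the spiked controls, 21 were higher and 16 lower. The median of all tested probe sets was then 0.33, compared with 0.003 as reported.

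Ta.9719.2.A1_at was higher in seed in every array, with group means of 6.83 to 8.30, against 5.01 to 6.24 in the vegetative groups without stem (difference 2.14, SE 0.0922, adjusted p = 1.76e-22 by limma). Ta.3055.1.S1_at lay between 2.80 and 3.90 on all seed arrays, against group means of 5.15 to 9.02 in the vegetative groups. The difference was -4.01 (SE 0.166, adjusted p = 5.16e-23 by limma). All its seed values were below background, and leaf 23, at 8.98, 9.25 and 8.84, was its highest group.

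Each dissected seed tissue was then set against the mean of the other 4. Embryo gave 8 higher and 26 lower (16.4% of all tested called, 9.13% higher and 7.26% lower). Crease gave 6 higher and 27 lower (14.9%, 5.38% and 9.53%). Endosperm gave 20 higher and 6 lower (7.06%, 5.12% and 1.94%), pericarp 21 higher and 1 lower (7.97%, 4.73% and 3.24%), and epiderm 25 higher and 4 lower (11.5%, 6.45% and 5.06%).

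The equally bright probe sets gave other splits. For embryo, 9.87% of these were lower and 13.4% higher. For crease, 15.8% were lower and 6.09% higher. For endosperm, pericarp and epiderm, 7.55%, 6.98% and 9.87% were higher. Embryo, endosperm and pericarp were extracted with guanidine hydrochloride, and within these 3 the counts were 7 higher and 32 lower for embryo (9.6% and 8.38% of all tested). They were 21 and 8 for endosperm (5.3% and 3.7%), and 24 and 4 for pericarp (4.75% and 5.2%). Crease against epiderm, both extracted with the column kit, gave 8 higher and 25 lower (7.7% and 10.5%).

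Ta.2067.1.S1_at was the called member with the largest positive difference in embryo, with 9.69, 10.58 and 10.38, against group means of 5.71 to 6.48 in the other seed tissues (difference 4.07, SE 0.315, adjusted p = 6.59e-14 by limma). Ta.12529.1.S1_at was higher in embryo by 2.56 (SE 0.377, adjusted p = 3.71e-07 by limma), and its highest group was coleoptile, at 12.46, 12.52 and 12.33. Ta.371.1.S1_at read 3.92, 4.69 and 4.97 in embryo, against group means of 7.83 to 9.99 in the other seed tissues, with a difference of -4.51 (SE 0.39, adjusted p = 1.51e-12 by limma). For Ta.20870.1.S1_at the embryo arrays read 5.16, 4.61 and 4.74, against means of 7.80 to 9.41 (difference -4.06, SE 0.279, adjusted p = 2.24e-15 by limma).

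Only 6 of the 100 members were listed in the annotation table used here, an old platform annotation, and 94 are unnamed here. These 6 are described because they carry a gene name, a choice made after their values were seen. The single one with a symbol other than a locus number was Ta.30703.1.S1_at, rank 56, listed as XTH, a xyloglucan endotransglucosylase/hydrolase. It read 10.71, 10.84 and 10.65 at stem 21, 10.13, 9.96 and 10.39 at stem 45, 9.52, 10.11 and 9.37 at stem 59, and 5.90, 6.19 and 5.90 at stem 75. Stem 45 and stem 59 overlapped, and stem 75 lay near background, far under the other stages.

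In leaf, XTH read 5.24, 6.20 and 6.02 in flag leaf 85, against 7.97, 9.44 and 9.59 in leaf 13, with no overlap (difference -3.18, SE 0.486, adjusted p = 1.99e-06 by limma). Without replicate 1 of leaf 13 the difference of means was -3.69. Leaf 23 was uneven, at 9.08, 6.34 and 9.13, and its lowest array lay inside the flag leaf 49 range of 5.51 to 6.62. Flag leaf 49 was lower than leaf 23 by 2.23 (SE 0.435, adjusted p = 0.00078 by limma). It was lower in root than in coleoptile, with 10.09, 9.92 and 9.84 in root, against 11.61, 11.87 and 11.52 in coleoptile (difference -1.72, SE 0.486, adjusted p = 0.006 by limma).

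In seed, XTH was high in epiderm, with 11.09 and 12.46, against group means of 5.96 to 9.36 in the other seed tissues (difference 3.78, SE 0.459, adjusted p = 1.73e-08 by limma). Crease lay at background, with 5.89, 5.92 and 6.07 (difference -3.49, SE 0.394, adjusted p = 1.38e-09 by limma). Epiderm and coleoptile were thus its highest groups, at means of 11.78 and 11.67, which do not differ beyond the spread of the pair of epiderm arrays, with stem 21 next at 10.73.

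The other 5 annotated members carried locus numbers alone, and no role is given to them here. LOC542781, on Ta.27725.1.S1_at, read 13.45, 13.37 and 13.42 at stem 21, 13.13, 12.71 and 12.77 at stem 45, 11.52, 11.88 and 11.71 at stem 59, and 6.58, 6.85 and 6.18 at stem 75. It was described by rule as the member with the highest stem 21 reading, and was above background in all 12 other groups, with means between 7.71 and 12.25. The dimmest at stem 21 was the unnamed TaAffx.84294.2.A1_at, with 4.88, 5.24 and 5.50, below background throughout. LOC100125738 and LOC606308 are Ta.13785.1.S1_at and Ta.21262.1.A1_at, described above for their root signal.

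LOC100037531, on Ta.1082.3.S1_at, had means of 10.87, 9.84, 8.95 and 8.19 over the stem stages and 12.25 in root. LOC100037651, on TaAffx.123559.1.S1_at, had 8.53, 7.99, 7.63 and 5.80 over the stem stages and 9.04 in root. A second probe set of that locus, Ta.30200.1.A1_at, had 7.48, 6.85, 6.85 and 6.32 in stem, a smaller total decline that did not continue at the second step.

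Probe sets built from the same sequence cluster, which share the middle number of their ID, gave a further reading on the same arrays. Among the members, 3 pairs shared a cluster. A further 78 probe sets outside the 100 shared a cluster with 37 members, and 50 of these were above background at stem 21. Of the 50, 34 fell at all 3 stem steps and 46 were lower at stem 75 than at stem 21. Of all 78, dim ones included, 38 fell at all 3 steps, and 4.55% of the 48411 candidates did so. These counts are descriptions, since companions share sequence with the members and the 50 were kept for their stem 21 signal. The share of all probe sets lower at stem 75 than at stem 21 is not given here. Over all pairs of a member and a companion outside the 100, dim companions included, the median correlation over the 16 group means was 0.762. It is a description, since arrays and sequence are shared and the 16 groups include the stem groups that chose the members. For Ta.26144.1.A1_at, the companion Ta.26144.1.A1_s_at fell by 2.04, 1.5 and 1.78 at the successive steps. Not all companions followed: TaAffx.86505.3.S1_at, which shares a cluster with TaAffx.86505.1.S1_at, changed from 5.22 at stem 21 to 4.77 at stem 75, with both means below background and a correlation of 0.119. Some companions above background rose. Ta.28728.3.S1_at, of the cluster of Ta.28728.1.S1_at, went from 12.19 at stem 21 to 13.23 at stem 75. Ta.9719.1.S1_at went from 8.56 to 9.25, with a correlation of -0.523 with Ta.9719.2.A1_at.

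Over the 12 groups without stem, the profiles within the class of root, coleoptile and leaf 13 were more alike than those among all members. The median pairwise correlation was 0.848 among the 28 members above background only among root, coleoptile and leaf 13, and 0.275 among all 100, a description since the class was formed on the same means. In those 28 the array medians of leaf 13 were 4.18, 5.70 and 6.12, so that replicate 1 lay closer to the leaf 23 arrays, at 3.99, 3.82 and 4.0, than to its own group. Of the member IDs, 28 began with TaAffx and 72 with Ta, whereas 42.3% of the equally bright probe sets began with TaAffx.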

How the data were processed

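RNA of 48 samples was read on the Affymetrix Wheat array after labelling in a pair of amplification cycles from 50 to 100 ng of total RNA, per the labels' protocols. Microarrays have no read depth, and the number of arrays limits the precision. The authors deposited 1 table of log2 values made with RMA, per the submitters' processing notes. The log base was taken as 2. The sources used here name neither the program that ran RMA nor its background step. Since RMA gives arrays nearly equal distributions, a shift of most transcripts together cannot be seen.

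The rule was applied in Python 3.11.15 with pandas 2.3.3 and numpy 2.4.6. limma 3.58.1 in R 4.3.3 fitted 1 mean per group over all 48 arrays and 61115 probe sets, without the 111 Affymetrix and 64 reporter controls (32 residual and 5.59 prior degrees of freedom). Tests were two-sided, with p-values adjusted over all 61115 by Benjamini-Hochberg. A call needed an adjusted p under 0.05 and a log2 difference of at least 1, and the steps were tested on simulated data. A difference against a group below background is the fitted value and moves with that background.

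The members, lists and tests were chosen with earlier results of these data known. Probe sets are named as ranks 1 to 8, as ranks 98 to 103 for their falls, as the pair of members with the largest and the pair with the smallest difference among calls without array overlap in 6 comparisons, by total fall and stem 21 signal, by the margin of stem 21 over the other groups, and, chosen after their values were seen, where the annotation table lists them. Gene lists could not be matched, because 59842 of the 61115 probe sets are not in that table. Alternatives covered array scaling, variance settings, thresholds, list length, single arrays left out and a replicate block.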

Additional observations from a re-analysis of the deposited data

Results flagged for a closer look

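In flag leaf 49, the group with 5 arrays, each of the 32 members named by rule was checked for an array far from the others by Dixon's ratio, and 2 exceeded the critical value of 0.71. Chance alone flags about 1 in 20. On Ta.13232.1.S1_at the lowest array read 12.35, whereas the other 4 lay between 13.07 and 13.31 (ratio 0.75). On Ta.21262.1.A1_at the highest array read 5.62, below background, whereas the other 4 lay between 3.52 and 3.85 (ratio 0.843).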

How the results depend on the processing

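Of the 100 members, 98 stayed with median centring, 90 with quantile normalization, 83 with centring on the spiked controls, 82 with group medians, 67 with the excluded ID types admitted and 80 to 96 with 1 stem array left out. The 487 alternative values of single members kept direction and call. Counts with the top 50 and the top 200 members were 42 and 112 (flag leaf 85 against leaf 13), 8 and 24 (flag leaf 49 against leaf 23), 39 and 107 (root against coleoptile, where the top 200 gave 53 higher and 54 lower), 42 and 118 (seedling organs), 26 and 76 (seed), 15 and 67 (embryo), 14 and 68 (crease), 12 and 57 (epiderm). The top 50 gave 5 (flag leaf 75 against 49), 17 (endosperm) and 11 (pericarp). Leaf 23 against leaf 13 had 0 calls when only these groups were fitted and 18 among members above background on a side, a setting chosen after the data were seen. Flag leaf 49 against leaf 23 had 28 with spike centring, 26 with array weights and 3 with only these groups, and flag leaf 85 against 75 had 1 with array weights. Seedling organs against leaf 13 alone gave 45, and 41 without replicate 1 of leaf 13 (19 higher and 22 lower). Seed gave 37 with spike centring (21 higher and 16 lower), 83 without a fold minimum, 30 with the same extraction method (32 without replicate 1 of leaf 13), 69 against root and coleoptile, 30 against leaf and 25 among members above background. The causes were not tested.

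Leaving out 1 array at a time, the counts ranged from 63 to 80 (flag leaf 85 against leaf 13), 15 to 46 (leaf 23 against leaf 13), 7 to 27 (flag leaf 49 against leaf 23), 14 to 17 (flag leaf 75 against 49), 56 to 64 (root), 67 to 72 (seedling organs), 42 to 51 (seed), 29 to 37 (embryo), 32 to 34 (crease), 23 to 30 (endosperm), 17 to 22 (pericarp) and 23 to 33 (epiderm), and stayed at 0 for flag leaf 85 against 75. In seedling organs against leaf, the median of all probe sets was 0.64 with spike centring and -0.07 as reported, and that of the members 2.14 and 1.42. It turned the members' median positive in flag leaf 75 against 49 (0.19, all probe sets 0.36) and in embryo (0.13, all probe sets 0.39). Same-numbered arrays correlated by -0.04 to 0.27 in their deviations and in no comparison above 0.1 for every number, so the numbers were not taken as pairs. With a replicate block the counts were 71, 28, 19, 16 and 0 in the leaf comparisons, 63 in root, 71 in seedling organs and 44 in seed.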
